A study of Mus musculus with 12 samples.

Results

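The synaptic vesicle release machinery was followed in ribosome-bound and total RNA of the mouse ventromedial nucleus of the hypothalamus (VMN). It was taken as 40 listed genes, named from their Ensembl identifiers, of 46517 identifiers counted. Each of the 40 matched 1 identifier, and all 40 passed the filter on low counts in every comparison. The samples came from translating ribosome affinity purification (TRAP), a method that labels the ribosomes of selected cells and then captures them with the RNA they carry. Every pool of 6 animals gave 1 input library from the dissected tissue and 1 output library from the pulled-down RNA, and there were 3 CTRL and 3 DN pools. Inputs and outputs were matched to a pool by the sample numbers in their titles. All mice ate chow, had fasted overnight and carried an adeno-associated virus for a GFP-L10 ribosomal fusion protein in the VMN. DN mice had a further virus, for a dominant-negative mutant of AMPK, the kinase that responds to a low energy state. For CTRL the labels disagree, since the treatment protocol mentions this virus too and the sample characteristics give No for it; groups follow the characteristics. No control virus is named for CTRL mice, so effects of the mutant and of a further injection cannot be told apart. AMPK activity was not measured. The labels say that the pulled-down RNA is from SF1 cells, and do not say what limits the tag to them.

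Release of transmitter runs through a chain of proteins. A vesicle carrying synaptobrevin is tethered by Rab3 proteins and the active zone scaffold and primed by Munc13 and CAPS proteins. Synaptobrevin, SNAP-25 and syntaxin zip together in a complex that fuses it with the membrane, and calcium bound to a synaptotagmin triggers the fusion. NSF and SNAP proteins then take the spent complex apart, and dynamins pinch vesicles off for reuse. Nearly every step has several paralogs, and neuron types differ in which of them they use. The question asked here was which paralogs the ribosomes of SF1 cells hold relative to the tissue, and whether DN pools differ from CTRL pools.

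The libraries held 34.6 to 55.5 M gene counts each. Without the mitochondrial genes, 8.54 to 11.3 M remained for inputs and 26.2 to 32.1 M for outputs. The 40 genes together had 194663 to 267696 counts in inputs and 672164 to 940255 in outputs. The highest was Snap25 in every library, with 70281 to 95412 counts in inputs and 272075 to 391107 in outputs. The lowest value was 11 counts of Stx1a in the input of CTRL pool 2. Of 15 markers of VMN neurons, 11 were higher and 1 was lower in CTRL outputs than in inputs, and 9 were higher and 1 was lower in DN. Nr5a1, which encodes SF1, stood at 1.94, 2.95 and 1.29 CPM (counts scaled to the library total multiplied by its TMM factor) in CTRL inputs and at 36.4, 19.4 and 12.6 in the outputs of the same pools. In DN it stood at 6.44, 6.83 and 4.68 CPM in inputs and 11, 31.2 and 25.4 in outputs, where its difference did not pass (adjusted p = 0.0946, edgeR). Of 12 astrocyte and 12 oligodendrocyte markers, 8 each were lower in outputs, in CTRL and in DN. Beside these marker counts, 1.78% of all genes tested were higher and 1.42% lower in CTRL outputs, and 1.84% and 1.54% in DN outputs. The summed level of the astrocyte markers was 2807 to 3389 CPM in CTRL inputs, 1552 to 1759 in CTRL outputs, 2856 to 3228 in DN inputs and 1037 to 1166 in DN outputs. The summed level of 9 GABA neuron markers was 775 to 950 CPM in CTRL inputs, 287 to 375 in CTRL outputs, 830 to 957 in DN inputs and 234 to 295 in DN outputs. No gene of the cell type lists of astrocytes, oligodendrocytes, microglia, endothelial cells or GABA neurons was at 0 in all outputs. The part of these cells in the values below was not tested. In such bulk libraries fewer cells of a type and less RNA per cell cannot be told apart.

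Per kilobase of exon, CTRL outputs held most of Snap25, at 708 ± 42.9 CPM per kb (SD, n = 3). Syn1 followed at 266 ± 51.6, Vamp2 at 155 ± 17.4 and Napb at 82.5 ± 5.60 CPM per kb. Syt4 at 66.1 ± 0.543 and Nsf at 64.8 ± 1.69 CPM per kb differed by less than the SD of Nsf, as did Rab3c at 55.7 ± 3.07 and Syt1 at 53.4 ± 4.93 by less than that of either. Rph3a at 39.98 ± 9.46 and Syt11 at 31.4 ± 1.68 CPM per kb closed the first 10. With the length of the longest transcript, 9 of these 10 remained among the first 10, and Sv2b took the place of Syt11. The lowest levels were those of Unc13b at 0.190 ± 0.118, Syt2 at 1.04 ± 0.395, Syt3 at 1.21 ± 0.181 and Stx1a at 1.22 ± 0.241 CPM per kb.

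Output libraries were compared with the input libraries of the same condition. In CTRL, 6 of the 40 genes were higher in outputs and 0 were lower, where 240 of all 13456 genes tested (1.78%) were higher and 191 (1.42%) were lower. The 6 were Snap25, Vamp2, Nsf, Napb, Syn1 and Doc2b. The median log2 fold change of the 40 genes was 0.13, beside 0.02 over all genes tested. In DN, 9 of the 40 were higher and 1 was lower, beside 240 of 13041 (1.84%) and 201 (1.54%), with a median of 0.12 beside 0.00 over all genes. The 9 were the 6 of CTRL with Sv2b, Cadps and Cadps2, and the lower one was Pclo. Within pools, 14 of the 40 genes had a higher level in the output than in the input of all 6 pools, beside 9.74% of 12521 genes, and 2 had a lower level in all 6, beside 8.03%. Both conditions have their own pools, so these are separate samples.

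The calls rest on few pools. Leaving 1 out leaves 2 libraries a group, and calls over all genes fell as well. Without CTRL pools 1, 2 and 3, 17, 13 and 100 of all genes were higher and 37, 32 and 114 lower. Without DN pools 1, 2 and 3, 71, 60 and 56 of all genes were higher and 77, 76 and 59 lower. Without CTRL pool 1, none of the 6 CTRL calls passed (adjusted p = 0.0535 to 0.322, edgeR), and without pool 2 none did (0.141 to 0.234). Without CTRL pool 3, Snap25, Vamp2, Syn1 and Doc2b passed and Nsf and Napb did not (0.11 and 0.0529). In DN, Snap25 and Syn1 passed without each pool and under every other alternative tried. Without DN pool 1, Napb and Doc2b also passed. Without DN pool 2 no other gene did (0.0519 to 0.182 for the remaining 8). Without DN pool 3, Napb and Sv2b also passed.

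**Figure D1:**
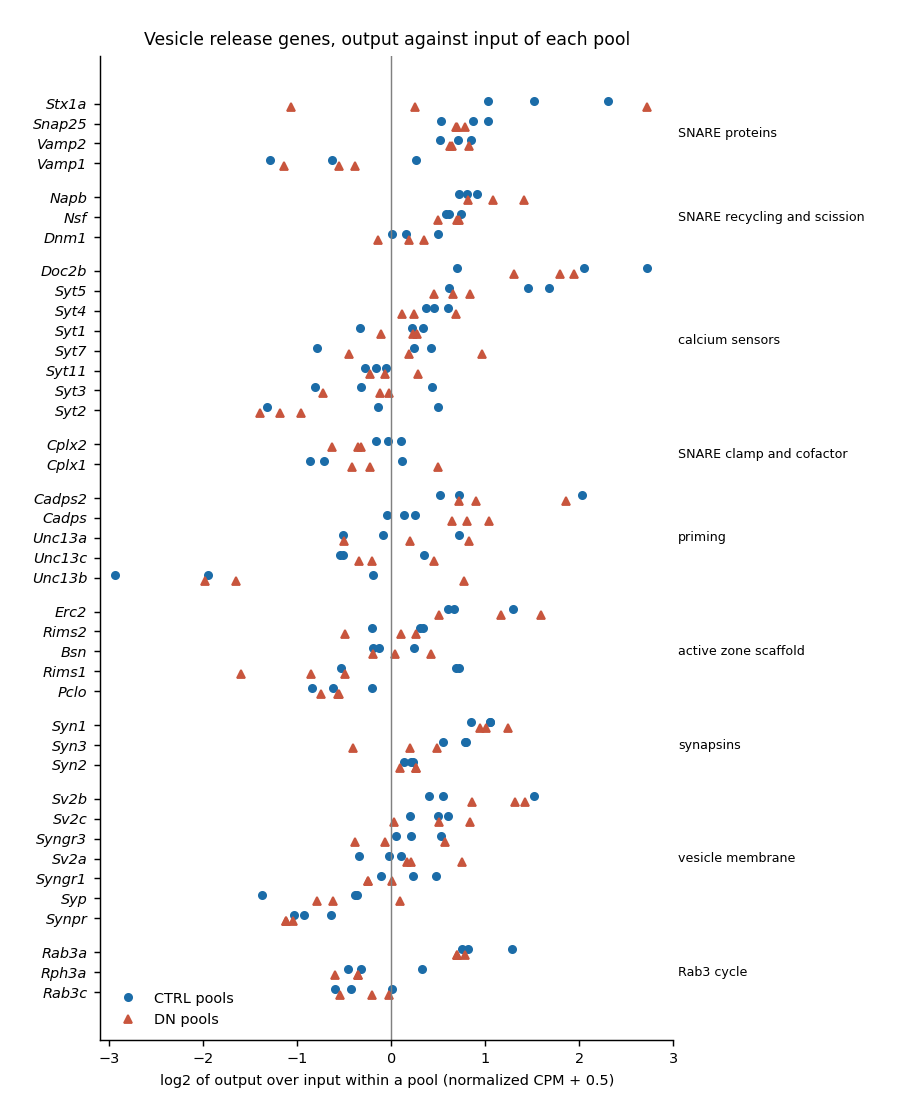
Log2 of output over input within each of the 6 pools for the 40 genes, grouped by role, with 0.5 added to normalized CPM; circles are CTRL pools and triangles DN pools. Snap25, Vamp2, Nsf, Napb, Doc2b, Syn1 and Sv2b lie right of 0 in all 6 pools, and Pclo and Synpr left of it in all 6.

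Among the SNARE proteins, the fusion engine itself, Snap25 and Vamp2 were higher in outputs in both conditions. Snap25 (ENSMUSG00000027273, chromosome 2, 136713453 to 136782428, GRCm38) encodes the plasma membrane SNARE SNAP-25. It stood at 2647, 2501 and 3134 CPM in CTRL inputs and at 4832, 5082 and 4501 CPM in CTRL outputs, and the groups did not overlap. The log2 fold change was 0.77 ± 0.12 (SE, adjusted p = 0.00623, edgeR). DN inputs held 3378, 3567 and 3256 CPM of Snap25 and DN outputs 5791, 5723 and 5296, all 3 outputs lying above all inputs (0.69 ± 0.07, adjusted p = 2.37e-04, edgeR).

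Vamp2 (ENSMUSG00000020894, chromosome 11, 69088490 to 69092384), the main synaptobrevin of the forebrain, stood at 353, 382 and 361 CPM in CTRL inputs and 634, 627 and 516 in CTRL outputs. Every output was above every input, at 0.67 ± 0.13 on the log2 scale (adjusted p = 0.0231, edgeR). In DN the inputs of Vamp2 were 426, 485 and 446 CPM and the outputs 753, 760 and 687, again without overlap (0.67 ± 0.12, adjusted p = 0.0117, edgeR).

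Its paralog Vamp1 did not pass in either condition. Vamp1 stood at 47.4, 38.4 and 48.5 CPM in CTRL inputs against 30.5, 46.2 and 19.5 in outputs, which overlap. In DN it stood at 48.6, 45.3 and 43.1 CPM in inputs and 21.7, 34.4 and 29.1 in outputs, which do not (adjusted p = 0.295, edgeR). The ratio of Vamp1 to Vamp2 was lower in the output than in the input of all 6 pools, by 0.45 to 1.98 on the log2 scale, with a mean of -1.33 ± 0.56 (SD, n = 6; exact sign-flip p = 0.03125, adjusted p = 0.0647). Per kilobase, Vamp2 made up 95.6% ± 0.67 of the pair in CTRL inputs, 98.0% ± 0.67 in CTRL outputs, 96.3% ± 0.39 in DN inputs and 98.6% ± 0.32 in DN outputs (SD, n = 3). Stx1a, a syntaxin of the plasma membrane, was scarce and scattered. It stood at 1.04, 0.391 and 0.798 CPM in CTRL inputs, 2.64, 3.92 and 3.23 in CTRL outputs, 2.37, 5.51 and 2.66 in DN inputs and 18.5, 6.67 and 0.999 in DN outputs. The DN outputs of Stx1a were the most scattered, with 1 below all DN inputs, and neither condition passed.

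That value of 0.03125 is the smallest p that 6 pools allow, and adjusted over the 29 paralog ratios compared it becomes 0.0647, so none of the ratios passed at 0.05. Of the 29 ratios, 14 had one sign in all 6 pools, 5 of them positive and 9 negative. Of 12521 single genes, 9.74% had a higher and 8.03% a lower level in the output of all 6 pools. These are levels and not ratios, and no share over ratios of other gene pairs was computed. The 14 are thus not said to exceed any share. Among the 14, Napa to Napb, Erc1 to Erc2 and Dnm2 to Dnm1 set a broadly expressed gene against a neuronal one. Of the 22 ratios in which both genes belong to the 40, 9 had one sign. A ratio of 2 genes in 1 library needs no scaling between libraries. Gene length drops out of its change only if reads spread along transcripts alike in inputs and outputs, which was not tested. Of the 9 between listed genes, all but Sv2b to Sv2a moved in outputs toward the gene with fewer exon bases. Rab3a, for example, has 2226 and Rab3c 12049. By the longest transcript, Doc2b to Rph3a is a further exception, with 4361 bases for Doc2b and 4150 for Rph3a. The part of length in these changes was not tested. The 14 ratios share genes (Syn1 and Rab3a are in 2 each, Dnm1 in 2) and are not independent.

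**Figure D2:**
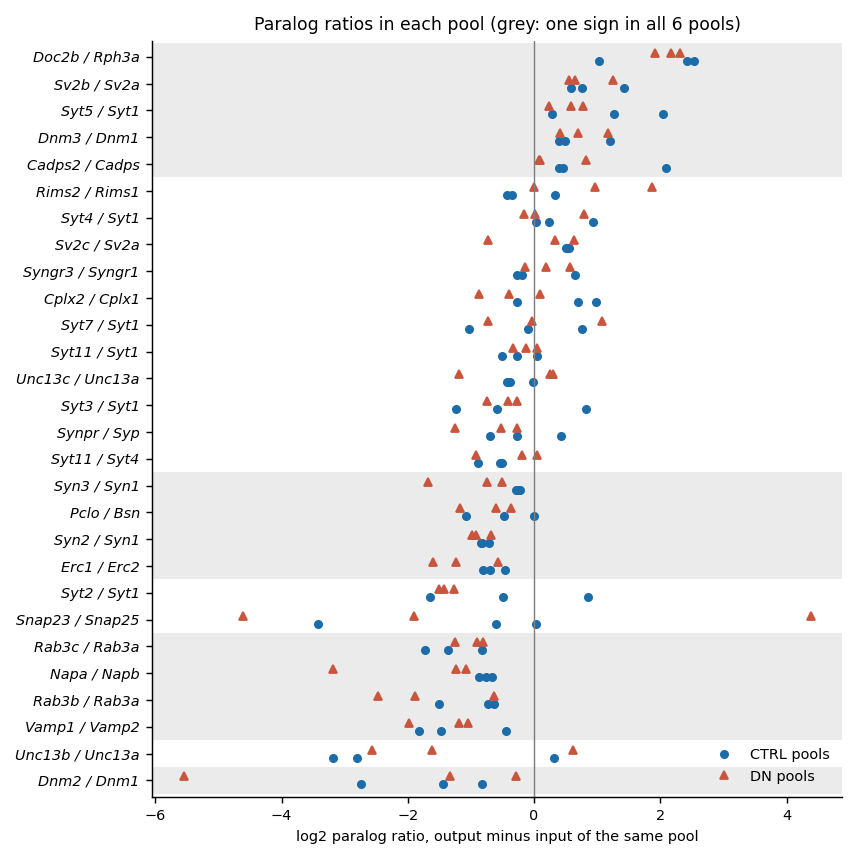
Change of the paralog ratios, as log2 ratio in the output minus log2 ratio in the input of the same pool; circles are CTRL pools, triangles DN pools, and grey bands mark the 14 ratios with one sign in all 6 pools. Doc2b to Rph3a lies highest, at a mean of 2.07, and Dnm2 to Dnm1 lowest, at -2.03 with a wide spread.

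Of the 3 genes of SNARE recycling and membrane scission, 2 were higher in outputs. Nsf (ENSMUSG00000034187, chromosome 11, 103821782 to 103954056), the ATPase that pulls spent SNARE complexes apart, stood at 350, 355 and 334 CPM in CTRL inputs and 536, 530 and 557 in outputs. All outputs were above all inputs, at 0.61 ± 0.12 on the log2 scale (adjusted p = 0.0209, edgeR). In DN, Nsf stood at 360, 395 and 361 CPM in inputs and 592, 642 and 508 in outputs, with no overlap (0.61 ± 0.14, adjusted p = 0.0324, edgeR).

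Napb (ENSMUSG00000027438, chromosome 2, 148693985 to 148732467) encodes beta-SNAP, the brain form of the adaptor that brings NSF to the complex. Its CTRL inputs were 330, 331 and 332 CPM and its CTRL outputs 545, 576 and 624, a difference of 0.78 ± 0.12 on the log2 scale (adjusted p = 0.00751, edgeR). Its DN inputs were 438, 299 and 386 CPM and its DN outputs 923, 797 and 682 (1.07 ± 0.17, adjusted p = 0.00379, edgeR), and the groups did not overlap in either condition. Napa, the broadly expressed alpha-SNAP and not one of the 40 genes, stood far lower and did not follow. It was at 10.4, 14.3 and 12.1 CPM in CTRL inputs, 10.8, 14.7 and 12.4 in CTRL outputs, 10.3, 25.6 and 8.64 in DN inputs and 9.23, 7.52 and 7.20 in DN outputs. The ratio of Napa to Napb was lower in the output of all 6 pools, by 0.67 to 3.18, with a mean of -1.30 ± 0.94 (log2, SD, n = 6).

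Dynamins act in vesicle recycling. Dnm1, the main neuronal dynamin, which cuts vesicles from the membrane, stood at 79.6, 62.1 and 61.0 CPM in CTRL inputs and 112, 69.1 and 61.4 in outputs. In DN, Dnm1 stood at 86.9, 79.2 and 72.4 CPM in inputs and 98.6, 71.9 and 92.1 in outputs, and inputs and outputs overlapped in both conditions. Dnm3, a dynamin enriched in brain and testis and outside the 40 genes, stood at 428, 535 and 480 CPM in CTRL inputs against 795, 838 and 1107 in outputs. That is 0.90 ± 0.15 on the log2 scale (adjusted p = 0.011, edgeR). In DN, Dnm3 stood at 577, 510 and 511 CPM in inputs and 1057, 1037 and 863 in outputs (0.86 ± 0.12, adjusted p = 0.00244, edgeR), again with every output above every input. Its call ended without any 1 CTRL pool (adjusted p = 0.0612 to 0.12) and without DN pool 2 (0.0738). Dnm2, the ubiquitous dynamin, was scarce, at 5.95, 5.66 and 7.62 CPM in CTRL inputs, 4.74, 0.940 and 2.81 in CTRL outputs, 2.94, 13.5 and 6.42 in DN inputs and 2.75, 0.254 and 3.26 in DN outputs. Relative to Dnm1, Dnm3 lay higher in the output of all 6 pools (mean 0.72 ± 0.37, log2, SD, n = 6) and Dnm2 lower in all 6 (-2.03 ± 1.91).

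Among the calcium sensors, 1 of 8 passed. Doc2b (ENSMUSG00000020848, chromosome 11, 75768966 to 75796049) encodes a soluble double-C2-domain protein that binds calcium with high affinity and promotes spontaneous and asynchronous release. It stood at 30.1, 18.1 and 64.7 CPM in CTRL inputs and 126, 122 and 105 in CTRL outputs. The input of CTRL pool 3 was the highest of the inputs, yet below every output (1.61 ± 0.38 on the log2 scale, adjusted p = 0.0458, edgeR). In DN, Doc2b stood at 45.0, 33.5 and 31.6 CPM in inputs and 112, 130 and 111 in outputs (1.65 ± 0.24, adjusted p = 0.00234, edgeR), with wide separation. Of the exon bases of Doc2b, 5.53% overlap Gm12339 on the other strand. The strand setting of the counting is not given in the sources used here, so reads of the overlap cannot be told apart.

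Doc2b is related to Rph3a, rabphilin, a Rab3 effector with the same pair of C2 domains. Rph3a stood at 204, 187 and 219 CPM in CTRL inputs, 148, 234 and 174 in CTRL outputs, 278, 184 and 206 in DN inputs and 183, 143 and 161 in DN outputs. It did not pass in either condition. The ratio of Doc2b to Rph3a was higher in the output of all 6 pools, by 1.03 to 2.53 on the log2 scale, and on average 4.18-fold (2.07 ± 0.55, SD, n = 6). Per kilobase, Doc2b made up 15.6% ± 7.5 of the pair in CTRL inputs and 40.8% ± 6.1 in CTRL outputs, and 15% ± 1.1 in DN inputs and 43.7% ± 5.0 in DN outputs.

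Syt1, the fast calcium sensor of synchronous release, showed no such difference. It stood at 369, 501 and 406 CPM in CTRL inputs, 466, 398 and 473 in CTRL outputs, 370, 379 and 436 in DN inputs and 445, 445 and 405 in DN outputs. The log2 fold change of Syt1 was 0.04 in CTRL (95% interval -0.29 to 0.37) and 0.10 in DN (-0.20 to 0.39). Syt5, a synaptotagmin also found on dense core vesicles, stood at 20.1, 12.5 and 12.2 CPM in CTRL inputs and 30.9, 41 and 34.3 in CTRL outputs, and its adjusted p was 0.0677 (edgeR). In DN, Syt5 stood at 31.3, 33.4 and 22.6 CPM in inputs and 56.3, 46.0 and 35.7 in outputs (adjusted p = 0.386, edgeR). Every output of Syt5 was above every input of its condition. The ratio of Syt5 to Syt1 was higher in the output of all 6 pools (mean 0.86 ± 0.69, log2, SD, n = 6). Among the 7 synaptotagmins of the list, Syt1 made up 31.2% ± 2.4, Syt4 38.7% ± 0.73 and Syt11 18.3% ± 0.68 of the counts per kilobase in CTRL outputs, and Syt5 8.72% ± 1.4. With the longest transcript as length Syt1 led Syt4, at 42.5% and 30.4%. Syt4, which binds calcium poorly and sits on peptide-containing vesicles, had a higher level in the output of all 6 pools but did not pass (adjusted p = 0.125 in CTRL and 0.477 in DN, edgeR). Its CTRL outputs of 255, 258 and 259 CPM were close to each other, above inputs of 197, 169 and 189. In DN, Syt4 stood at 245, 191 and 165 CPM in inputs and 265, 226 and 266 in outputs, which overlap. Of its exon bases, 14.5% overlap Gm26658 on the other strand. Syt2, Syt3, Syt7 and Syt11 passed in neither condition.

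Of the promoters in RefSeq (GRCm38.p6, from 250 bases before to 50 after a gene's start), 41 belonged to 31 of the 40 genes. They were searched on both strands for the letters CAAGGTCA, a binding site of SF1, TGACGTCA, the cyclic AMP response element, and TTCAGCACC, a part of the RE1 element bound by the neuronal repressor REST. The SF1 letters occurred in 1 promoter of the 31 genes, that of Syt2, beside 512 of all 32851 promoters (1.56%). No gene called higher in CTRL or DN outputs that has an entry held them, which says only that these letters are not in this window. Genes without an entry were not searched. Syn1, whose RNA was higher in outputs under every DN alternative, was the 1 gene with the cyclic AMP letters (588 of all promoters, 1.79%) and also held the RE1 letters (122 of all, 0.371%), which the window of Unc13a held too. Both stretches are shown 5′ to 3′ on the gene's strand, Syn1 from chrX:20921029-20921168 (minus strand) and Syt2 from chr1:134646402-134646501 (plus strand). Capitals mark the searched letters: in Syn1 the RE1 letters, first base at -232 from the start, then the cyclic AMP letters at -159, and in Syt2 the SF1 letters on the opposite strand at -167.
Syn1: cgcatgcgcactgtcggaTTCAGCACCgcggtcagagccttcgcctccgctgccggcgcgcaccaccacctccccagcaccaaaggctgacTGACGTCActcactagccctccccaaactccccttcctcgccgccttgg
Syt2: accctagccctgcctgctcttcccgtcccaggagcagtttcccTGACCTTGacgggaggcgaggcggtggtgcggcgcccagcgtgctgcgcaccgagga
Matches of letters are a description and do not show that a factor binds.

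Synapsins coat vesicles and hold them in reserve. Syn1 (ENSMUSG00000037217, chromosome X, 20860511 to 20921004), shown above with its promoter stretch, stood at 385, 442 and 497 CPM in CTRL inputs and 693, 916 and 1027 in CTRL outputs. Every output was above every input, at 0.96 ± 0.17 on the log2 scale (adjusted p = 0.011, edgeR). In DN, Syn1 stood at 572, 549 and 543 CPM in inputs and 1352, 1058 and 1092 in outputs (1.04 ± 0.12, adjusted p = 5.74e-04, edgeR), and the lowest output lay well above the highest input.

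Its paralogs did not follow to that extent. Syn2 stood at 52.2, 56.0 and 47.9 CPM in CTRL inputs, 57.3, 65.7 and 55.4 in CTRL outputs, 65.9, 53.3 and 65.2 in DN inputs and 79.3, 63.8 and 69.7 in DN outputs. Syn3 stood at 10.5, 11.4 and 8.95 CPM in CTRL inputs, 15.7, 19.9 and 15.9 in CTRL outputs, 10.3, 13.7 and 11.6 in DN inputs and 7.63, 15.7 and 16.3 in DN outputs. Neither passed. The ratio of Syn2 to Syn1 had the narrowest spread of the 29, lower by 0.69 to 0.98 in all 6 pools (mean -0.83 ± 0.11, log2, SD, n = 6), which is 1.77-fold. The ratio of Syn3 to Syn1 was lower in all 6 too (-0.61 ± 0.56), by 0.22 to 0.28 in CTRL pools and by 0.51 to 1.68 in DN pools. Of the exon bases of Syn3, 14.1% overlap Timp3, a protease inhibitor gene on the other strand, beside 0.273% of those of Syn1 that overlap Araf.

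**Figure D3:**
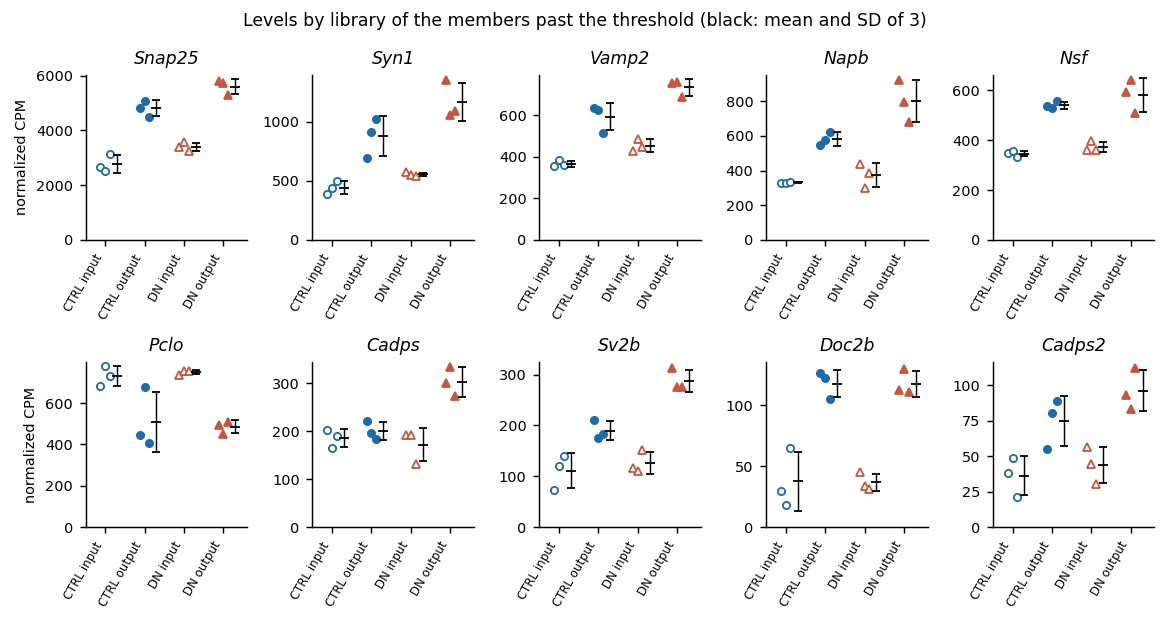
Normalized CPM in each library of the 10 genes past the threshold in CTRL or DN, each panel from 0; open symbols are inputs, filled symbols outputs, and black marks the mean and SD of 3 libraries. Outputs of Snap25, Syn1, Vamp2, Napb, Nsf and Doc2b lie above the inputs of their condition, and Pclo outputs lie below them.

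Priming makes a docked vesicle ready to fuse, and 2 of its 5 genes passed, both CAPS proteins and both in DN. Cadps (ENSMUSG00000054423, chromosome 14, 12372563 to 12823079), CAPS-1, a priming factor of dense core vesicles and synaptic vesicles, stood at 202, 164 and 190 CPM in CTRL inputs and 221, 196 and 184 in CTRL outputs, which overlap (0.08 ± 0.16, adjusted p = 0.862, edgeR). In DN, Cadps stood at 191, 191 and 132 CPM in inputs and 300, 334 and 273 in outputs, with every output above every input (0.79 ± 0.18, adjusted p = 0.0377, edgeR). The difference between both conditions in this change is taken up below.

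Cadps2 (ENSMUSG00000017978, chromosome 6, 23262773 to 23839421), CAPS-2, stood at 38.3, 48.8 and 21.5 CPM in CTRL inputs and 55.0, 80.4 and 89.1 in outputs. No CTRL output was as low as an input, but the difference did not pass (1.02 ± 0.30, adjusted p = 0.102, edgeR). In DN, Cadps2 stood at 56.2, 44.5 and 30.6 CPM in inputs and 93.1, 83.4 and 112 in outputs (1.11 ± 0.27, adjusted p = 0.0474, edgeR). That call ended with the pool as a block (adjusted p = 0.0599) and in 7 other of 11 alternatives. The ratio of Cadps2 to Cadps was higher in the output of all 6 pools, by 0.08 to 2.10 on the log2 scale (0.66 ± 0.76, SD, n = 6), with the largest value in CTRL pool 3 and 2 DN pools at 0.10 or less.

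The Munc13 genes did not pass in either condition. Unc13c made up 79.7% ± 2.8 of the 3 Munc13 genes per kilobase in CTRL outputs, beside 79.6% ± 2.3 in CTRL inputs, and Unc13a 18.1% ± 4.0 beside 14.8% ± 2.2. Unc13b, the least abundant, ranged from 1.67 to 12.8 CPM in outputs and from 7.25 to 22.5 CPM in inputs, with CTRL outputs all below CTRL inputs (adjusted p = 0.166, edgeR). The complexins, which clamp and then help the SNARE complex, did not pass either. Cplx1 ranged from 20.2 to 41 CPM over the 12 libraries and Cplx2 from 66.0 to 121 CPM, and the ratio of Cplx2 to Cplx1 was higher in the output of 3 pools and lower in that of the other 3.

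In the active zone scaffold, the giant proteins Piccolo and Bassoon are close relatives that keep vesicles clustered. Pclo (ENSMUSG00000061601, chromosome 5, 14514918 to 14863459), Piccolo, was the 1 gene of the 40 lower in outputs. It stood at 737, 756 and 753 CPM in DN inputs and 496, 449 and 510 in DN outputs (-0.66 ± 0.12 on the log2 scale, adjusted p = 0.0106, edgeR). In CTRL, Pclo stood at 680, 778 and 730 CPM in inputs and 443, 676 and 408 in outputs, and although every output was below every input, the output of pool 2 was close to the inputs (-0.55 ± 0.18, adjusted p = 0.15, edgeR). Without any 1 DN pool the call ended (adjusted p = 0.0716 to 0.136). Of the exon bases of Pclo, 4.12% overlap genes on the other strand.

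Bsn, Bassoon, stood at 77.0, 81.3 and 65.5 CPM in CTRL inputs, 70.1, 70.9 and 77.5 in CTRL outputs, 79.8, 49.4 and 66.5 in DN inputs and 69.4, 66.2 and 68.2 in DN outputs. Its inputs and outputs overlapped in both conditions. The ratio of Pclo to Bsn was lower in the output of all 6 pools (-0.62 ± 0.44, log2, SD, n = 6), although in CTRL pool 2 the difference was under 0.01. Erc2, an ELKS scaffold protein of the neuronal active zone, came close to the threshold in both conditions. It stood at 58.0, 70.6 and 45.8 CPM in CTRL inputs and 92.1, 107 and 113 in outputs (0.82 ± 0.20, adjusted p = 0.0551, edgeR). In DN, Erc2 stood at 77.7, 47.6 and 45.5 CPM in inputs and 110, 107 and 138 in outputs (1.03 ± 0.26, adjusted p = 0.0521, edgeR). Its broadly expressed paralog Erc1, outside the 40 genes, stood at 45.8, 55.8 and 32.9 CPM in CTRL inputs, 52.7, 48.2 and 50.4 in CTRL outputs, 64.2, 69.9 and 62.7 in DN inputs and 61.2, 66.4 and 62.9 in DN outputs. The ratio of Erc1 to Erc2 was lower in the output of all 6 pools (-0.90 ± 0.44). The RIM genes Rims1 and Rims2, which tie calcium channels to the release site, passed in neither condition, and which of them made up more counts per kilobase in CTRL outputs changed with the length used (Rims1 63.6% by all exons, 48.0% by the longest transcript).

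Of 7 vesicle membrane genes, 1 passed, in DN. Sv2b (ENSMUSG00000053025, chromosome 7, 75114894 to 75309262) belongs to the SV2 family of transporter-like vesicle glycoproteins. It stood at 117, 111 and 152 CPM in DN inputs and 313, 276 and 275 in DN outputs, all outputs far above the inputs (1.15 ± 0.18 on the log2 scale, adjusted p = 0.00393, edgeR). In CTRL, Sv2b stood at 73.1, 121 and 139 CPM in inputs and 210, 176 and 184 in outputs, again without overlap, but did not pass (0.75 ± 0.23, adjusted p = 0.11, edgeR). The test of this difference between conditions gave 0.41 ± 0.30 (unadjusted p = 0.189, adjusted p = 0.902, edgeR).

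Sv2a, the binding site of the antiseizure drug levetiracetam, overlapped between inputs and outputs in CTRL, and in DN its outputs lay above its inputs without passing (adjusted p = 0.604, edgeR). It stood at 56.9, 39.99 and 40.3 CPM in CTRL inputs, 61.0, 39.1 and 31.5 in CTRL outputs, 41.2, 37.5 and 38.9 in DN inputs and 46.2, 63.5 and 45.0 in DN outputs. The ratio of Sv2b to Sv2a was higher in the output of all 6 pools, by 0.56 to 1.42 on the log2 scale (0.87 ± 0.37, SD, n = 6), which is 1.83-fold. Per kilobase, Sv2b made up 33.3% ± 7.7 of the 3 SV2 genes in CTRL inputs and 42.2% ± 2.8 in outputs, and 35.2% ± 4.7 and 47.6% ± 3.3 in DN. Sv2c had a higher level in the output of all 6 pools without passing (adjusted p = 0.204 in CTRL and 0.282 in DN, edgeR).

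Synpr, synaptoporin, was the 1 other gene besides Pclo with a lower level in the output of all 6 pools. It stood at 27.7, 29.5 and 21.7 CPM in CTRL inputs, 17.5, 14.1 and 11.2 in CTRL outputs, 29.6, 28.4 and 24.3 in DN inputs and 13.3, 12.8 and 11.5 in DN outputs. No output of Synpr reached an input, but neither condition passed (adjusted p = 0.183 and 0.162, edgeR). Its abundant paralog Syp, synaptophysin, ranged from 123 to 188 CPM in inputs and from 54.2 to 132 CPM in outputs and did not pass (adjusted p = 0.2 and 0.271, edgeR). Of the exon bases of Syp, 16.8% overlap Gm14703 on the other strand. The synaptogyrins Syngr1 and Syngr3 overlapped between inputs and outputs in both conditions.

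Rab3 proteins mark vesicles for docking, and none of the 3 genes of the Rab3 cycle passed. Rab3a stood at 22.7, 29.9 and 21.1 CPM in CTRL inputs and 56.1, 50.6 and 37.5 in outputs (0.94 ± 0.27, adjusted p = 0.0912, edgeR). In DN, Rab3a stood at 31.1, 38.3 and 34.1 CPM in inputs and 53.7, 62.3 and 55.7 in outputs (0.70 ± 0.27, adjusted p = 0.221, edgeR). No input of Rab3a reached an output of its condition.

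Rab3c, the more abundant of the pair, stood at 847, 1057 and 685 CPM in CTRL inputs, 628, 696 and 687 in CTRL outputs, 763, 962 and 835 in DN inputs and 752, 658 and 725 in DN outputs. The CTRL groups of Rab3c overlapped. The ratio of Rab3c to Rab3a was lower in the output of all 6 pools, by 0.81 to 1.73 on the log2 scale (-1.15 ± 0.37, SD, n = 6), which is 2.21-fold. Per kilobase, Rab3a made up 13.4% ± 0.82 of the pair in CTRL inputs, 27.9% ± 4.9 in CTRL outputs, 18.0% ± 0.22 in DN inputs and 30.4% ± 3.1 in DN outputs. Rab3b, outside the 40 genes, stood at 13.0, 16.3 and 12.2 CPM in CTRL inputs, 11.2, 16.6 and 13.9 in CTRL outputs, 19.9, 24.9 and 29.3 in DN inputs and 22.2, 11 and 8.62 in DN outputs. The ratio of Rab3b to Rab3a was also lower in the output of all 6 pools (-1.31 ± 0.77).

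**Figure D4:**
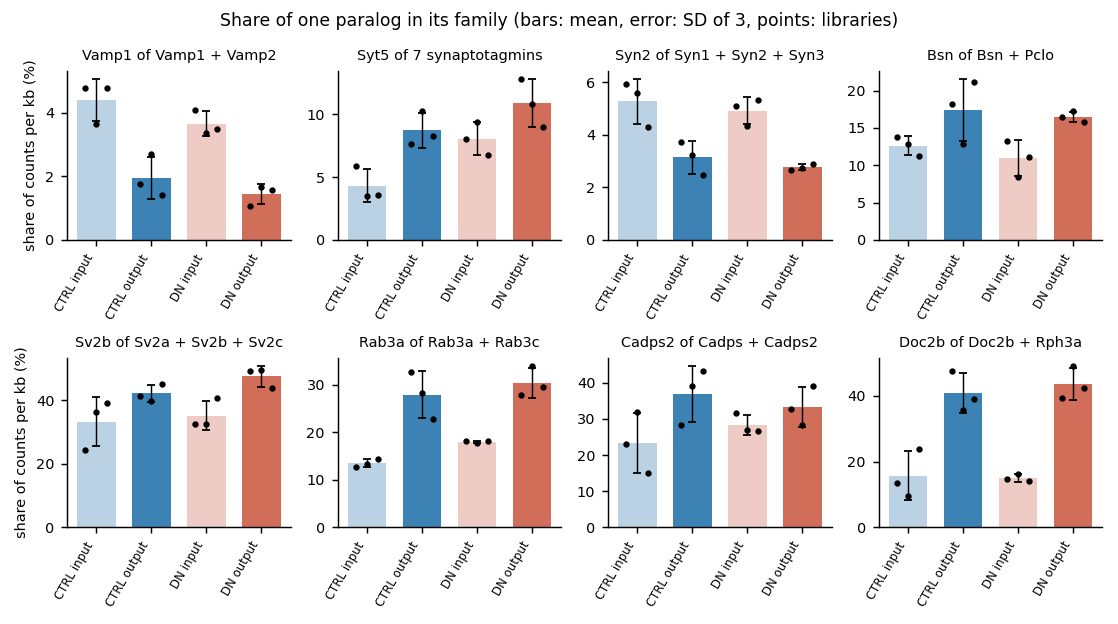
Share of 1 paralog in its family's counts per kilobase of exon, in percent, for 8 families; bars are means of 3 libraries, error bars SD and points single libraries. Rab3a goes from 13.4% to 27.9% and Doc2b from 15.6% to 40.8% between CTRL inputs and CTRL outputs.

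The genes of neighbouring steps were counted in the same way. Of 49 tested genes of other fusion, priming and vesicle proteins, 2 were higher and 0 lower in CTRL outputs, and of 48 tested 2 were higher and 0 lower in DN. Over all genes tested, 1.78% were higher and 1.42% lower in CTRL, and 1.84% and 1.54% in DN. With 1 or 2 genes called, or 0, no list in this paragraph is said to differ from these shares. The 2 in CTRL were Vti1a, a SNARE of the endosome and Golgi (0.96 ± 0.20, adjusted p = 0.029, edgeR), and Syt6 (0.90 ± 0.21, adjusted p = 0.0451). The 2 in DN were Syt16 (1.32 ± 0.28, adjusted p = 0.0223, edgeR) and Ppfia2, a liprin scaffold (0.75 ± 0.17, adjusted p = 0.0347). Of vesicle endocytosis genes, Dnm3 was higher among 25 tested in CTRL, and Dnm3 and Aak1, a kinase of the clathrin adaptor (0.70 ± 0.16, adjusted p = 0.0314, edgeR), among 24 in DN. Of 18 dense core vesicle genes, 1 passed in CTRL, Pam, which amidates peptides (1.26 ± 0.22, adjusted p = 0.0109, edgeR), and 0 in DN. At an unadjusted p under 0.05 there were 6 of the 18 in CTRL, beside 2200 of all 13456 genes, and 6 in DN, beside 2041 of 13041. These genes apart from Dnm3 were named after their values were seen. Of 18 neuronal genes outside vesicle release, 2 were higher in CTRL outputs and 1 in DN outputs. Their median log2 fold changes were 0.22 and 0.20, beside 0.02 and 0.00 over all genes.

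DN pools were then compared with CTRL pools in each fraction. In outputs, 0 of the 40 genes were higher and 0 lower with edgeR, and the same was so for all 13333 genes tested (0%). At an unadjusted p under 0.05 there were 7 of the 40 and 721 of all genes, and DESeq2 and limma-voom called 0 of the 40. Of all 13333 genes, DESeq2 called 23 higher and 35 lower, and limma-voom 0 higher and 1 lower. In inputs, 0 of the 40 were called with edgeR, beside 1 of all 13221 genes higher (0.00756%) and 0 lower. At an unadjusted p under 0.05 there were 5 of the 40 and 589 of all genes, and DESeq2 and limma-voom called 0 of the 40. Of all 13221 genes, DESeq2 called 0 higher and 2 lower, and limma-voom 9 higher and 0 lower. The median log2 fold change of the 40 was 0.12 in outputs, beside 0.01 over all genes, and 0.14 in inputs, beside 0.03.

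Without a test, 6 of the 40 genes had every DN output above every CTRL output, which 5.15% of all genes had, and 3 had every DN output below, which 5.87% had. The 6 were Snap25, Vamp2, Napb, Cadps, Syn1 and Sv2b, and the 3 were Syt3, Rims1 and Bsn. In inputs, 9 genes had every DN library above every CTRL library, beside 5.11% of all genes, and 0 had every one below, beside 5.39%. The 9 were Snap25, Stx1a, Vamp2, Nsf, Syt5, Syt7, Syn1, Sv2c and Rab3a, so Snap25, Vamp2 and Syn1 are in both sets. The summed level of the 40 genes was 11121 to 12051 CPM in CTRL outputs and 12685 to 13923 in DN outputs, and 8064 to 8626 in CTRL inputs and 9131 to 9675 in DN inputs. The SNARE proteins, mostly Snap25, made up 5040 to 5759 CPM of it in CTRL outputs and 6013 to 6585 in DN outputs. Sums of the calcium sensors, complexins, active zone scaffold and Rab3 cycle overlapped between DN and CTRL in both fractions. Those of the priming genes overlapped in inputs only, and the sums of the other roles in neither fraction. The 18 neuronal genes outside vesicle release summed to 2570 to 2940 CPM in CTRL outputs and 3121 to 3319 in DN outputs, without overlap. The astrocyte markers summed to 1552 to 1759 CPM in CTRL outputs and 1037 to 1166 in DN outputs. The summed level of the VMN neuron markers was 1887 to 2151 CPM in CTRL outputs and 2203 to 2820 in DN outputs, also without overlap. In inputs the 18 neuronal genes overlapped, at 2316 to 2691 CPM in CTRL and 2617 to 2931 in DN, as did the VMN neuron markers at 939 to 1092 and 1000 to 1236. Their part in the values of the 40 genes was not tested.

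The smallest unadjusted p values in outputs belonged to Sv2b, Cadps and Napb, whose library values are given above. Sv2b outputs were 0.60 ± 0.15 higher in DN on the log2 scale (95% interval 0.26 to 0.93, unadjusted p = 0.00219, adjusted p = 0.88, edgeR). Cadps outputs were 0.59 ± 0.15 higher (0.25 to 0.93, unadjusted p = 0.00259, adjusted p = 0.88, edgeR). Napb outputs were 0.46 ± 0.14 higher (0.16 to 0.76, unadjusted p = 0.00648, adjusted p = 0.88, edgeR). Rims1, RIM1, went the other way, at 50.5, 44.9 and 70.5 CPM in CTRL outputs and 26.2, 32.5 and 37.2 in DN outputs (-0.79 ± 0.28, unadjusted p = 0.0169, adjusted p = 0.911, edgeR). In inputs, Rims1 stood at 31.2, 65.5 and 42.6 CPM in CTRL and 47.8, 99.3 and 52.6 in DN, which overlap. In inputs, the smallest unadjusted p belonged to Snap25, 0.30 ± 0.10 higher in DN (95% interval 0.08 to 0.52, unadjusted p = 0.011, adjusted p = 0.997, edgeR). None of these passed over all genes.

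**Figure D5:**
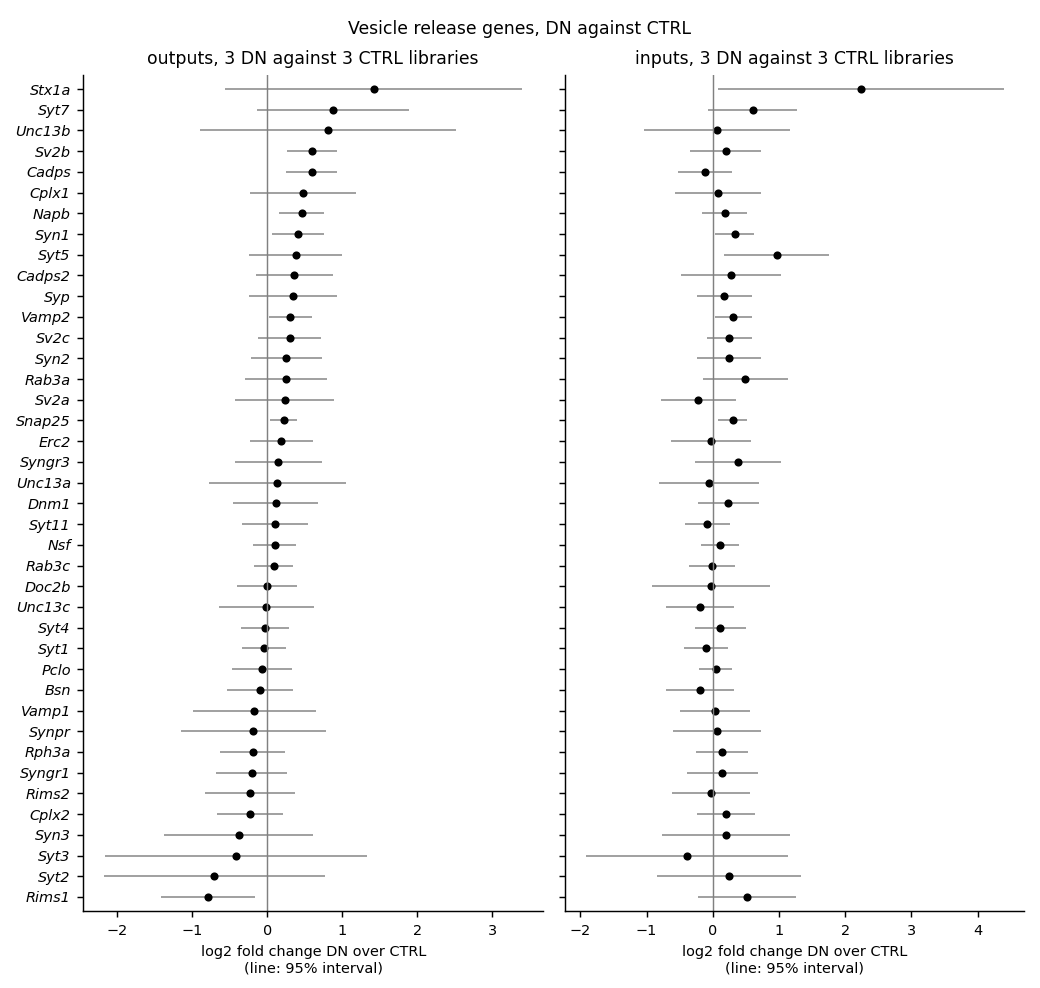
Log2 fold change of DN over CTRL for the 40 genes in outputs (left) and inputs (right), 3 libraries against 3, with 95% intervals; genes are ordered by the value in outputs. Intervals of 7 genes in outputs and 5 in inputs lie off 0 before adjustment over all genes.

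The difference of the DN effect between outputs and inputs was called for 0 of the 40 genes and for 0 of all 15011 genes tested (0%) with edgeR. At an unadjusted p under 0.05 there were 2 of the 40 and 933 of all genes. The 2 were Cadps, at 0.70 ± 0.24 (95% interval 0.19 to 1.22, unadjusted p = 0.0101, adjusted p = 0.691, edgeR), and Rims1, at -1.31 ± 0.46 (-2.29 to -0.33, unadjusted p = 0.0117, adjusted p = 0.714). DESeq2 and limma-voom called 0 of the 40 here. Of all 15011 genes, DESeq2 called 40 higher and 51 lower, and limma-voom 0 and 0. The output-input change of Cadps, past the threshold in DN and not in CTRL, is thus not shown to differ between them.

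Paralog ratios were compared between DN and CTRL by exact permutation, where 3 against 3 cannot give a p below 0.1. Of single genes in outputs, 5.15% lay above and 5.87% below in DN without overlap. Such a share was not computed for ratios of other gene pairs. In outputs, DN and CTRL did not overlap for 5 of 29 ratios, with the smallest adjusted p at 0.58. As written, all 5 were lower in DN, but the sign depends on which gene is named first, so they share no direction. They were Napa to Napb (-6.64 ± 0.08 against -5.54 ± 0.21, log2, SD, n = 3), Syn3 to Syn1 (-6.53 ± 0.81 against -5.67 ± 0.30), Cplx2 to Cplx1 (1.13 ± 0.22 against 1.86 ± 0.47), Synpr to Syp (-3.22 ± 0.09 against -2.64 ± 0.34) and Syt3 to Syt1 (-7.27 ± 0.15 against -6.89 ± 0.35). In inputs they did not overlap for 6, with the smallest adjusted p at 0.483, beside 5.11% and 5.39% of single genes. Among these, Syt7 to Syt1, Sv2c to Sv2a, Erc1 to Erc2 and Rab3b to Rab3a were higher in DN, and Rab3c to Rab3a was lower (4.63 ± 0.02 against 5.13 ± 0.10, log2, SD, n = 3). No ratio was in both sets.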

How the data were processed

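Each library's table holds unnormalized read counts for Ensembl genes, as deposited by the authors. The submitters' processing notes list HTSeq 0.6.1, STAR 2.4.2a, cutadapt 1.3 and build GRCm38. The RNA was amplified (NuGEN Ovation), per the labels' protocols. Neither the strand setting of the counting nor its annotation release is given in the sources used here. Reads assigned to no gene were left out of all totals. Symbols and positions came from GENCODE for GRCm38, which held 46005 of 46517 identifiers (98.9%).

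Genes were tested two-sided in edgeR 4.0.16 (R 4.3.3; quasi-likelihood F test, TMM, filterByExpr with minimum count 10 and minimum total 15, Benjamini-Hochberg over all genes tested, threshold 0.05), 6 libraries per comparison and 12 for the interaction. Errors of fold changes are SE. Levels are CPM with TMM factors over 12 libraries, which were 0.509 to 0.665 in inputs and 1.59 to 1.91 in outputs. Paralog ratios are log2 of counts plus 0.5, tested by exact two-sided permutation (scipy 1.17.1), with Benjamini-Hochberg over 29. The values of 1 of these ratios are not reported here. Alternatives were DESeq2 1.42.0, limma-voom (limma 3.58.1), RLE size factors, no filter, a mean of at least 5 CPM, no mitochondrial genes, a replicate block, 1 fit of 12 libraries, and leaving out each pool. The scripts were tested on simulated data.

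The genes, lists, ratios and tests were chosen with earlier results of these data known. Library values are printed for genes past the threshold in output against input and for both genes of each ratio of one sign in 6 pools, and other pathway genes where both conditions passed. Those of Stx1a, Syt4, Synpr and Rims1 fall outside this rule and were added after their values were seen; Nr5a1 is given as a marker. Input and output of 1 sample number in the titles were taken as 1 pool. Their deviations from the group means correlated at r = 0.149, 0.0523 and 0.212 in CTRL and 0.00952, -0.00602 and 0.0105 in DN over 7874 genes. DN and CTRL pools share only numbers. Except with the replicate block, edgeR p-values treat input and output of 1 pool as independent libraries, and rest on a spread partly shared between genes. Sign-flip p-values of the ratios rest on the differences within pools, and DN against CTRL p-values of the ratios on relabelled libraries or pools.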

Additional observations from a re-analysis of the deposited data

How the results depend on the processing

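In CTRL, 6 of the 40 genes passed in output against input, 13 with DESeq2, 11 without the filter on low counts, and between 0 and 4 when a pool was left out. Over all genes, 240 were higher and 191 lower of 13456. These were 597 and 575 with DESeq2, and 476 and 427 of 21704 without the filter. In DN 10 passed, and between 2 and 4 when a pool was left out, which leaves 2 libraries a group. With DESeq2, 10 of the 40 were higher and 3 lower in DN, beside 503 and 621 of all 13041 genes. Without the filter, 10 were higher and 2 lower, beside 495 and 481 of 20918. Calls over all genes also fell when a pool was left out, as given above. With input and output paired by sample number and the pool as a block, 6 passed in CTRL and 9 in DN, where Cadps2 was lost. Between DN and CTRL, and in the interaction, 0 of the 40 passed under each alternative run, a replicate block included, which there joins unrelated animals. Of the 16 calls, 2 (Snap25 and Syn1 in DN) held in every alternative, and no call changed sign. Paralog ratios of one sign numbered 14 of 29, and 14 to 16 when a pool was left out. A ratio of one sign in 6 pools keeps it in any 5, so this number could not fall and is no check. Ratios without overlap between DN and CTRL numbered 5 in outputs and 6 in inputs, and 6 to 9 and 8 to 10 when a pool was left out, alternatives added after seeing the data. In those, 3 libraries against 2 leave fewer pairs that could overlap. Low counts limit Stx1a, Unc13b, Syt3 and Dnm2.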
